A study of Mus musculus with 281 samples.

Results

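The genes described here are 10 cation channel genes of the mouse: the vanilloid TRP channels Trpv4, Trpv5 and Trpv6, the melastatin TRP channels Trpm3, Trpm4, Trpm6 and Trpm7, and the mucolipins Mcoln1, Mcoln2 and Mcoln3. They were listed by name from the 47752 genes of the deposited gene table, which holds all 10. The cells were single cells of the stria vascularis, the ion-transporting epithelium of the cochlear lateral wall, picked with a glass micropipette from male mice on a 129S6 background and profiled with Smart-Seq2, which copies full-length poly-adenylated mRNA. Of the cells, 40 came from Slc26a4+/- mice aged 26 to 33 days, 69 from Slc26a4-/- mice aged 24 to 44 days and all others from Slc26a4+/+ mice aged 22 to 42 days. Slc26a4 encodes pendrin, the anion exchanger that secretes bicarbonate into the endolymph. The Slc26a4-/- and Slc26a4+/- mice differed from the controls by the label of this allele alone, no other agent or allele was named, and the allele is present in all cells of the mouse. Since the labels do not name the mouse that gave a cell, a genotype was treated as 1 sample, and values are set side by side without a test except where collection sessions served as samples.

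TRP channels are tetrameric cation channels of the plasma membrane and of intracellular membranes. TRPV5 and TRPV6 are the epithelial channels that take up Ca2+ from luminal fluids and are inhibited by acid, which is why they are of interest where pendrin is lost and the endolymph turns acid. TRPV4 is a Ca2+-permeable channel opened by cell swelling and warmth, TRPM6 and TRPM7 are Mg2+-permeable channels fused to a kinase, and the mucolipins release Ca2+ from endosomes and lysosomes.

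The cells held between 1848 and 7932729 estimated counts, with a median of 1312950, and 20 cells, all Slc26a4+/+, held fewer than 100000. Levels are given as CPM, the counts of a gene scaled to the same total in every cell. Clusters were named from marker genes as intermediate-like (IMC-like, 84 cells, led by Dct, Tyr and Kcnj10), spindle-like (SC-like, 33 cells, led by Anxa1 and Wfdc18), root-like (RC-like, 37 cells, led by Epyc) and marginal-like (MC-like, 21 cells, led by Kcnq1, Kcne1 and Lrp2). Of the listed intermediate markers, Pmel and Kit were near absent from the Slc26a4+/+ IMC-like cells, with means of 0.572 and 0.0959 CPM. Of the listed spindle markers, Krt19 was lower in Slc26a4+/+ SC-like than in RC-like cells (8.77 against 148.1 CPM), and Dpp10 averaged 19.2 CPM in SC-like cells. The 3 basal cell markers (Cldn11, Sox8 and Nr2f2) summed to a median of 3369 CPM in Slc26a4+/+ SC-like cells. A pair of clusters (89 and 17 cells) stayed unnamed, since their cells did not reach the limit of 80% with 1 best-scoring type. Cells were sequenced on 4 run dates, and Slc26a4-/- cells of the named clusters were sequenced on run dates 2 and 4 only. A collection session is the set of cells of 1 genotype with the same run date, day number and age, and there were 37 sessions. In Slc26a4+/+ cells the Slc26a4 mRNA itself averaged 989 CPM for RC-like and 912 for SC-like cells, against 1.18 for IMC-like and 0.328 for MC-like cells. Its gene count did not check the genotype labels, as it was 277.8 CPM in Slc26a4-/- against 1749 in Slc26a4+/+ pendrin cells (SC-like and RC-like together) on run date 2 and 1898 against 1080 on run date 4. The part of the gene that the allele lacks was not resolved by this count.

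Of the 10 genes, 6 had a mean of at least 10 CPM in a named type of Slc26a4+/+ cells: Trpv4, Trpm3, Trpm4, Trpm7, Mcoln1 and Mcoln3. Of all 47752 genes, 23.8% reached this level. Of the 10 genes, 3 (Trpm7, Mcoln1 and Mcoln3) reached it in all 4 types, as did 12.1% of all genes. Among genes with 10 CPM in a type, these were 3 of 6 members and 5760 of 11384 genes, so the members were near the background. Trpm3 led 2-fold in RC-like cells and Trpv4 led 2-fold in MC-like cells, and the other 4 had no type that led by 2-fold. Of the 11384 genes with 10 CPM in a type, 35.3% had such a leading type, 11.9% being led by RC-like, 6.35% by MC-like, 8.24% by IMC-like and 8.76% by SC-like cells. The other 4 genes, Trpv5, Trpv6, Trpm6 and Mcoln2, stayed below 10 CPM in every named type. The types come from clusters of these same cells, so their levels are a description without a test.

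**Figure D1:**
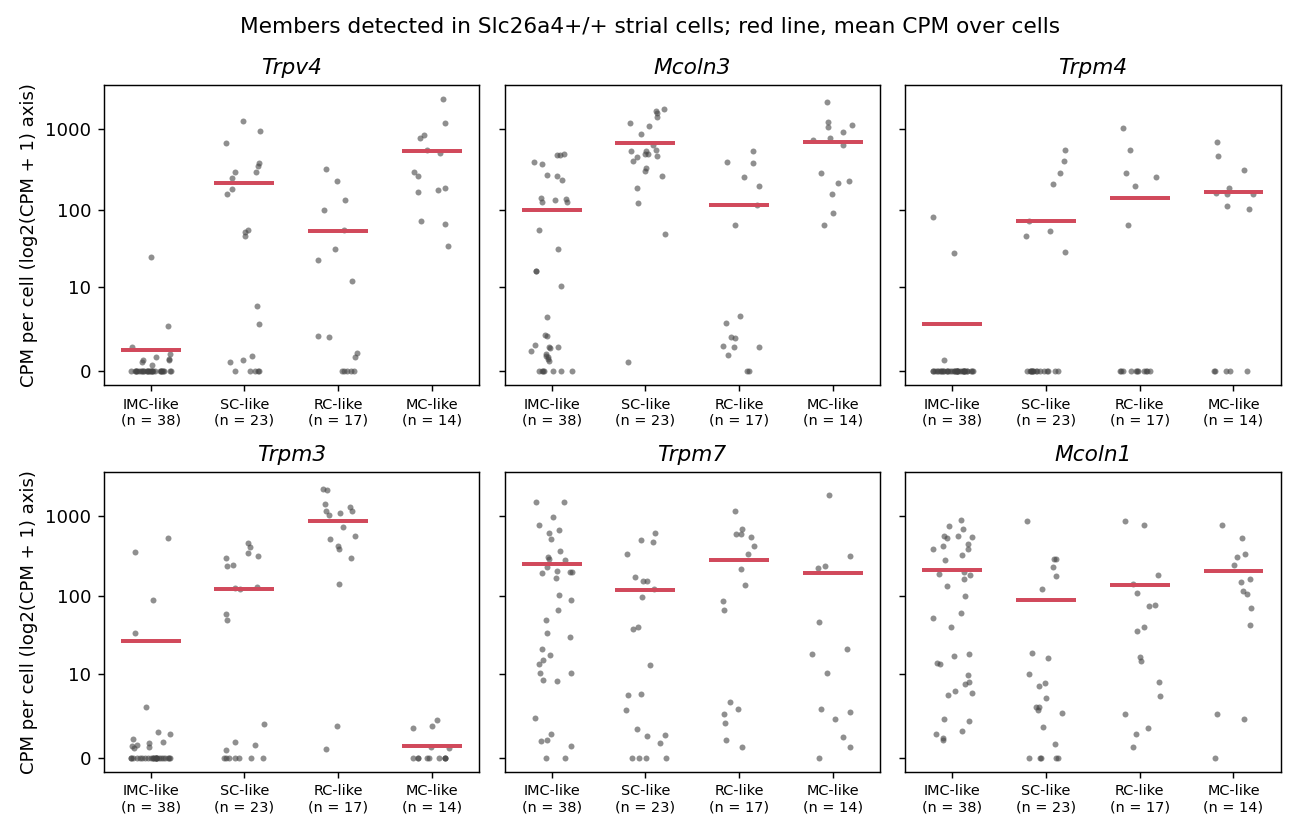
CPM per cell (vertical axis, spaced as log2(CPM + 1)) of the 6 detected genes in the 4 named types of Slc26a4+/+ cells; each point is 1 cell and the red line the mean over cells. Trpm3 was near 0 in all 14 MC-like cells and highest in RC-like cells, Trpv4 was at 34.4 CPM or more in all 14 MC-like cells, and Trpm7 and Mcoln1 spread over the whole range in every type.

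Trpv4 (ENSMUSG00000014158, chr5:114622152-114658421, minus strand, GRCm38) was highest in MC-like and SC-like cells and near absent from IMC-like cells. The MC-like cells had 10 or more counts of Trpv4 in 14 of 14 cells, with a mean of 538 CPM. Over their 8 sessions the lowest mean was 34.4 CPM, the median 384 and the highest 1202. The order of mean levels was MC-like, SC-like (216.2 CPM, 14 of 23 cells), RC-like (53.4 CPM, 6 of 17 cells) and IMC-like (0.830 CPM, 1 of 38 cells). MC-like exceeded IMC-like cells in 5 of 5 sessions that held both and RC-like cells in 4 of 4. MC-like exceeded SC-like cells in 4 of 5 such sessions, but their session means overlapped widely, since SC-like sessions ran from 0 to 1263 CPM. After thinning every cell to 100000 counts, 14 of 14 MC-like and 2 of 38 IMC-like cells had a count of Trpv4.

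The acid-sensitive pair Trpv5 (chr6:41652173-41680769) and Trpv6 (chr6:41620624-41636405), neighbours on the minus strand of chromosome 6, was all but absent. Trpv5 had 0 counts in every cell. In the 40 Slc26a4+/+ pendrin cells the count of 0 allows 0.0489 CPM (3 counts over the summed depth), a limit that covers counting error only. Trpv6 had 49 counts in 2 cells, 17 counts in 1 Slc26a4+/+ RC-like cell (25.1 CPM) and 32 in 1 Slc26a4-/- IMC-like cell (6.26 CPM). Neither gene could therefore be compared between genotypes at this depth.

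Trpm3 (ENSMUSG00000052387, chr19:22139046-22995410, plus strand), a steroid- and heat-gated Ca2+ channel, was the root cell channel of the set. Its mean in RC-like cells was 854 CPM, with a lowest session mean of 0.293, a median of 497 and a highest of 2190 CPM over 12 sessions, and 15 of 17 cells held 10 counts. SC-like cells followed with 122.6 CPM and 11 of 23 cells, then IMC-like cells with 26.97 CPM and 4 of 38 cells. In MC-like cells the mean was 0.398 CPM, with no cell of 14 with 10 counts. RC-like exceeded SC-like cells in all 5 sessions that held both types and on all 4 run dates, at 970 against 40.7 CPM on run date 1, 2109 against 381 on run date 2, 418 against 99.2 on run date 3 and 821 against 150 on run date 4. In 1 of the 5 sessions the values were near the floor, at 0.293 CPM in 1 RC-like cell against 0 in 1 SC-like cell. The lowest RC-like sessions, each of 1 cell, fell within the SC-like range of 0 to 464 CPM, so the types overlapped between sessions. Within shared sessions they did not overlap, but the session near the floor adds little to this. The 2 other genotypes had the same leading type, with 773 CPM over 6 Slc26a4+/- and 834 CPM over 14 Slc26a4-/- RC-like cells, all 20 of which held 10 counts.

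The transcripts of Trpm3 start at 3 places. The 2 transcripts that start farthest upstream, at 22139117, took 3.12% of its estimated counts over all cells. The single transcript from 22448232 took 36.8%, and the 3 transcripts from 22692786 to 22692788 took 60.1%. In Slc26a4+/+ RC-like cells the shares were 0.192, 43.5 and 56.3%, so nearly all counts fell to the downstream starts. Exons of Trpm3 overlap those of the antisense gene Gm27151 and, over 351 bases, of the noncoding gene C330002G04Rik, and the library does not mark strand, so reads there cannot be told apart. These shares come from assigning reads to annotated transcripts, and no 5′ end was measured. The 250 bases before the RefSeq start that lies next to 22448232 (chr19:22447958-22448207, plus strand, GRCm38.p6) are shown. Among the starts with a RefSeq entry, this one was assigned the most counts in RC-like cells. The 250 bases hold no CACGTG.
Trpm3: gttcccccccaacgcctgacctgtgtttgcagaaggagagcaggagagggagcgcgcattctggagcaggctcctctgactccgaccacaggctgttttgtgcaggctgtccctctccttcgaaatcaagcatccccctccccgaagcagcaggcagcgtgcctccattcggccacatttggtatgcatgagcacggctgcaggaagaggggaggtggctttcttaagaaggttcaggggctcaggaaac

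Trpm4 (ENSMUSG00000038260, chr7:45302632-45333780, minus strand) encodes a Ca2+-activated channel for monovalent cations. It was detected in part of the MC-like cells (mean 166.6 CPM, 9 of 14 cells with 10 counts), RC-like cells (140.7 CPM, 6 of 17) and SC-like cells (72.4 CPM, 8 of 23), and in 2 of 38 IMC-like cells (2.84 CPM). The session medians were 98.3 CPM in MC-like cells and 0 in the other 3 types, so MC-like, RC-like and SC-like cells were not separated beyond their spread. The gene table holds only 49.3% of the counts that the transcript files assign to Trpm4, against 96.7 to 100% for the other members with counts. On the transcript scale, in TPM, which also divides by transcript length, the order was the same, with 234.8 in MC-like, 148.8 in RC-like, 42.4 in SC-like and 1.86 in IMC-like cells.

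Trpm6 (chr19:18749983-18892511), the Mg2+ channel of absorptive epithelia, had 4 counts in 3 cells. Its relative Trpm7 (ENSMUSG00000027365, chr2:126791565-126876230, minus strand) was found in all types. Mean Trpm7 levels were 287.4 CPM in RC-like, 249.8 in IMC-like, 194.2 in MC-like and 119.4 in SC-like cells. Session means ran from 0.686 to 1159 CPM in RC-like cells, from 0.694 to 972 in IMC-like, from 0.374 to 1833 in MC-like and from 0 to 505 in SC-like cells, and all 4 ranges overlapped. IMC-like exceeded SC-like cells in 6 of 10 shared sessions and RC-like cells in 4 of 8. By run date, RC-like means were above IMC-like means on all 4, although the shared sessions split evenly. No order of types therefore stood beyond the spread between sessions. Only 31.5% of the Trpm7 counts fell to protein-coding transcripts, and 60.7% fell to 1 transcript with a retained intron. On coding transcripts alone, Trpm7 was at 22.7 TPM in RC-like, 16.05 in IMC-like, 13.8 in MC-like and 7.36 in SC-like cells.

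Mcoln1 (ENSMUSG00000004567, chr8:3500457-3515232, plus strand), the lysosomal Ca2+ release channel, was as widespread as Trpm7. It had means of 211.03 CPM in IMC-like, 204.6 in MC-like, 139.1 in RC-like and 89.7 in SC-like cells. The lowest session means were 2.08, 0, 1.01 and 0 CPM in that order and the highest 692, 771, 779 and 868 CPM. The session ranges overlapped in every pair of types, and IMC-like exceeded SC-like cells in 7 of 10 shared sessions. Among the types, 31 of 38 IMC-like, 11 of 14 MC-like, 10 of 17 RC-like and 11 of 23 SC-like cells held 10 counts.

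Mcoln2 (chr3:146149833-146195513) had 29 counts, all in 1 Slc26a4+/+ cell of an unnamed cluster. Its neighbour Mcoln3 (ENSMUSG00000036853, chr3:146117450-146141806, plus strand), an endosomal and plasma membrane channel whose dominant mutations cause deafness and pigment defects in varitint-waddler mice, was the most abundant mucolipin by count. Means were 696 CPM in MC-like cells (14 of 14 with 10 counts), 673 in SC-like cells (20 of 23), 114.9 in RC-like cells (7 of 17) and 99.2 in IMC-like cells (16 of 38). MC-like sessions ran from 64.01 over a median of 654 to 2201 CPM, and SC-like sessions from 50.02 over 570 to 1792 CPM. These 2 types did not differ beyond their spread, SC-like being higher in 3 and MC-like in 2 of 5 shared sessions. SC-like exceeded IMC-like cells in all 10 sessions that held both types and on all 4 run dates. MC-like exceeded IMC-like cells on all 3 run dates with both types, but in only 3 of 5 shared sessions, IMC-like being higher in 2. RC-like and IMC-like cells, with session medians of 12.4 and 70.5 CPM, changed order between sessions, RC-like being higher in 6 of 8.

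The split of estimated counts between annotated transcripts bears on the level of Mcoln3. The transcript of 2991 bases from 146121672 took 90.2% of its counts over all cells, and that of 477 bases from 146117450 took 9.72%. In Slc26a4+/+ MC-like and RC-like cells the 477-base transcript took 16.3% of the counts each, in IMC-like cells 11.8% and in SC-like cells 7.71%. Because this transcript is short, it weighs more in TPM than in CPM. The Mcoln3 level in TPM was highest for MC-like cells (764), then SC-like (569), RC-like (136.3) and IMC-like (98.4), the same order of types as in CPM.

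Levels can be compared between genes per transcript length. In MC-like cells the order in TPM was Mcoln3 (764), Trpv4 (238.8), Trpm4 (234.8), Mcoln1 (214.96), Trpm7 (117.9) and Trpm3 (0.133). In SC-like cells Mcoln3 (569) stood first and Trpv4 (94.5) second. In RC-like cells Trpm3 (424) led Trpm7 (163.9), Mcoln1 (159.3), Trpm4 (148.8), Mcoln3 (136.3) and Trpv4 (22.4). In IMC-like cells Mcoln1 (209.6) and Trpm7 (171.1) led Mcoln3 (98.4) and Trpm3 (18.5), while Trpm4 and Trpv4 stood at 1.86 and 0.442. Mcoln3 thus stood first in both MC-like and SC-like cells, Trpm3 in RC-like cells and Mcoln1 in IMC-like cells. These TPM sum coding and noncoding transcripts. On coding transcripts alone the first gene of each type was the same. The order below the first gene changed. Trpm7 then stood at 22.7 TPM in RC-like and 16.05 in IMC-like cells, below Mcoln3 at 136.03 and 98.4. Trpm4 fell to 83.8 TPM in MC-like cells, below Mcoln1 at 199.99, and to 71.5 in RC-like cells, also below Mcoln3. A single transcript of the nonsense-mediated decay class made up 47.5% of the Trpm4 TPM in MC-like cells. The 477-base transcript made up 64.9% of the Mcoln3 TPM in MC-like cells.

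The promoters of the 3 genes found in all types are shown for the palindrome CACGTG, the core of the site that the lysosomal regulator TFEB binds. RefSeq starts on GRCm38.p6 matched 9 of the 10 genes, and 250 bases before each start were read. The motif, which reads the same on both strands, stood 2 times before Mcoln1 and 1 time each before Trpm7 and Mcoln2, and it was not found before the other 6 matched genes. Of 32841 RefSeq promoters of this length, 6.02% held it and 0.429% held it 2 or more times. A match describes the letters and is no measured binding site. The stretches are chr8:3500269-3500518 (plus strand), chr2:126876262-126876511 (minus strand) and chr3:146121541-146121790 (plus strand), written 5′ to 3′ with CACGTG in capitals.
Mcoln1: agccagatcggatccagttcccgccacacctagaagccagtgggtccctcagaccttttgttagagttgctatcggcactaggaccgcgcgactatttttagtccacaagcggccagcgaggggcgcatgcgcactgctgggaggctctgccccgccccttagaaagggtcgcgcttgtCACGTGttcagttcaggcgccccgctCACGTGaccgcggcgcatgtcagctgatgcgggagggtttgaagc
Trpm7: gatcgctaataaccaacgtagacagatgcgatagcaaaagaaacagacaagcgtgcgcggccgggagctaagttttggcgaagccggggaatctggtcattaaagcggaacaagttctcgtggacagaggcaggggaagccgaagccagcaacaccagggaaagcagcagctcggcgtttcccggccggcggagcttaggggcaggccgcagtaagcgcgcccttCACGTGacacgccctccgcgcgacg
Mcoln3: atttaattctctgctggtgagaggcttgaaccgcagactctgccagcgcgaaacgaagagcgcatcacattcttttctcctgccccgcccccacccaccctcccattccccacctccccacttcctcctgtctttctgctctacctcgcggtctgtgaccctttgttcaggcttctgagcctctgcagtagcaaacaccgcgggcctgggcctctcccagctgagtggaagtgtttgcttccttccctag

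Cells that held 10 counts of several of the genes were counted within each type. Whether genes shared cells more often than their separate counts would give was not tested. For Trpv4 and Mcoln3 in MC-like cells the joint count cannot show this, since each gene was in all 14 cells. All 14 MC-like cells held 10 counts of both Trpv4 and Mcoln3, 9 of the 14 also held Trpm4, and none held Trpm3. Of the 23 SC-like cells, 13 held Trpv4 and Mcoln3 together, 11 held Trpm3 and Mcoln3 together, and 2 held neither Trpv4 nor Mcoln3. Of the 17 RC-like cells, 15 held Trpm3, of which 4 also held Trpv4 and 6 also held Mcoln3. A Slc26a4+/+ cell held a median of 4 of the 6 detected genes in MC-like and RC-like clusters, 3 in SC-like and 2 in IMC-like.

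The genes whose levels ran most like those of 5 of the channels were found over the 92 Slc26a4+/+ cells of named clusters, by Pearson's r of log2(CPM + 1) among 9763 genes with a mean of 10 CPM. These r values describe cells that share run dates, sessions and types and that differ in depth. Trpv4 and Mcoln3 shared their first gene, the aminopeptidase gene Enpep, at r of 0.72 and 0.65. The next genes were Mfi2 and Gstm2 for Trpv4 (0.68 each) and the endocytic receptor gene Lrp2 (0.64) and Rnf149 (0.63) for Mcoln3. Trpm3 ran with Gas1 (0.65), Tspan12 (0.62) and Clu (0.62), and Trpm4 with the adhesion receptor gene Cxadr (0.56), Serinc2 (0.54) and Arhgef38 (0.49). The most like genes were weaker matches for the widespread Trpm7 (Gm6211, Kat6b and Snhg11, at most 0.43).

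Of 18 other TRP genes, 7 reached 10 CPM in a type, and 4 of these were led 2-fold by 1 type. IMC-like cells led the melanocyte channel gene Trpm1 (47.7 CPM against at most 0.503 elsewhere), Trpv2 (22.4 against at most 0.651) and Pkd2l1 (19.4 against at most 0.0225). MC-like cells led Trpm5 (15.7 CPM), which was found in 5 of 14 cells. The polycystin Pkd2 had 70.7 CPM in SC-like and 38.2 in IMC-like cells, and Trpc1 and Pkd2l2 peaked at 11.9 and 11.2 CPM in SC-like cells. The remaining 11, Trpa1 and Trpv1 among them, stayed below 10 CPM.

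Among genes that act with the members, 6 of 7 endolysosomal genes, 5 of 5 TRPV-binding genes and 3 of 3 Mg2+ transport genes reached 10 CPM in a type, and Abcc8, a partner of Trpm4, did not. None of the 6 endolysosomal genes had a leading type, and the highest were the TPC1 channel gene Tpcn1 (265.4 CPM in RC-like cells, 185.96 in IMC-like) and Pikfyve (106.04 CPM in IMC-like cells), the kinase that makes the lipid that opens mucolipins. The TRPV5/6-binding annexin gene Anxa2 stood at 2790 CPM for SC-like and 1286 CPM for RC-like cells, in which Trpv5 and Trpv6 were not read beyond 1 cell. Pacsin2 was highest in MC-like cells at 556 CPM, and Pacsin3, whose protein binds TRPV4, in SC-like cells at 271.3 CPM. Of the Mg2+ genes, the exporter gene Slc41a1 reached 173.2 CPM in RC-like cells and Cnnm4 72.8 CPM in SC-like cells.

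**Figure D2:**
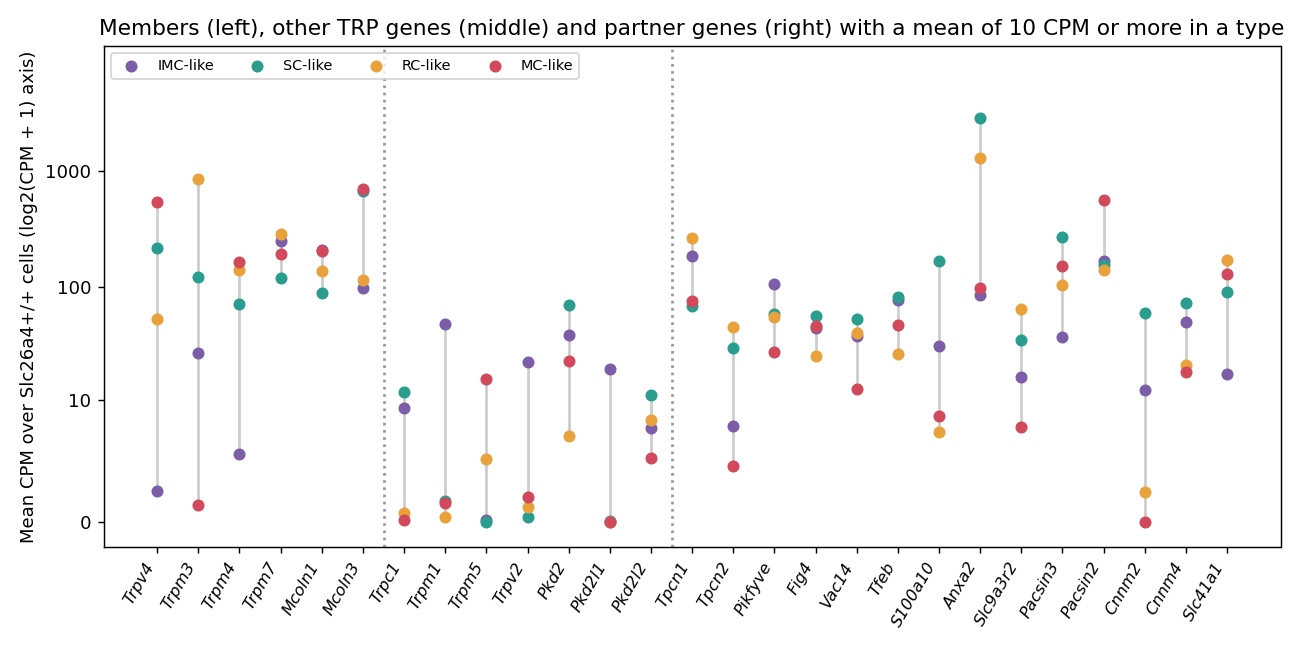
Mean CPM over Slc26a4+/+ cells (vertical axis, spaced as log2(CPM + 1)) of each gene with at least 10 CPM in a type, with 1 point for each named type; members stand on the left, other TRP genes in the middle and partner genes on the right. Trpm1, Trpv2 and Pkd2l1 were high in IMC-like cells alone, while none of the 6 endolysosomal genes was led 2-fold by 1 type.

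The first genotype comparison asked which channels differ in intermediate cells when the endolymph is acid. IMC-like cells of Slc26a4-/- and Slc26a4+/+ mice were compared within run date 2 (15 against 5 cells) and within run date 4 (11 against 7 cells), and a gene was past the fold where both run dates differed by over 2-fold in the same direction. Of the 5 members with a mean of 10 CPM over these cells, only Mcoln3 was past the fold, higher in Slc26a4-/- cells. Of 8623 genes, 12% were past the fold in that direction, and 5.65% were past it in the other, so 1 of 5 members was a share near the background.

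On run date 2 the session means of Mcoln3 were 372, 158.7 and 3.71 CPM in Slc26a4+/+ and 131.7, 508.4, 427, 446 and 559 CPM in Slc26a4-/- IMC-like cells. Of these Slc26a4-/- sessions, 4 of 5 were above every Slc26a4+/+ session, and the fifth lay within their range. On run date 4 the Slc26a4+/+ session means were 0, 36.03 and 0.731 CPM and the Slc26a4-/- means 231.6, 330 and 646 CPM, with no overlap. The means over cells were 416 against 170 CPM on run date 2 (log2 ratio 1.28) and 305 against 10.6 CPM on run date 4 (log2 ratio 4.72). The share of cells with 10 counts was 13 of 15 against 2 of 5 on run date 2 and 9 of 11 against 1 of 7 on run date 4.

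With sessions as samples, the exact two-sided permutation of session labels within run dates gave a difference of 3.84 in log2(CPM + 1) and p = 0.0134 over 1120 arrangements (8 against 6 sessions; the smallest p they can give is 0.000893). This p is 1 of 6 members examined and is not adjusted. In the edgeR quasi-likelihood fit over all genes, the log2 fold change was 2.63 with an adjusted p of 0.545, and in DESeq2 it was 2.29 with an adjusted p of 0.233. Neither fit called any member, edgeR calling 0.112% of 8961 genes and DESeq2 6.01% of 8385, nor did edgeR with no filter (0.258% called) or with sessions of 2 or more cells (0.0265%), and Mcoln3 was the 1 member with an unadjusted p under 0.05 in both. Without the 1-cell Slc26a4+/+ session of 23 days of age the ratio on run date 2 fell to 0.97, within 2-fold. On run date 2, 2 day numbers held IMC-like cells of both genotypes, and they went opposite ways. On 1 of these days Slc26a4-/- cells had 131.7 CPM of Mcoln3 against 158.7 in Slc26a4+/+ cells (3 against 3 cells), and on the other 427 against 3.71 CPM (4 cells against 1). An edgeR fit of these 4 sessions with the day as a block gave a log2 fold change of 3.09 with an adjusted p of 1 (0.173% of 7530 genes called, no member), on 1 residual degree of freedom.

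Depth and other cell types were read beside Mcoln3. The median depth was 1152276 counts in Slc26a4-/- against 2426146 in Slc26a4+/+ cells on run date 2 and 4072682 against 1831846 on run date 4, so it differed in opposite directions. The summed levels of the 8 MC markers, in which type Mcoln3 is high, ran from 28.8 to 836 CPM in Slc26a4-/- and from 45.5 to 792 in Slc26a4+/+ cells on run date 2, and from 103.7 to 531 against 147.5 to 1483 CPM on run date 4. The 8 SC markers summed to at most 79.4 CPM in Slc26a4-/- against 42.7 in Slc26a4+/+ cells on run date 2, with medians of 22.01 against 16.5. On run date 4 they summed to at most 133.5 against 166.2 CPM, with medians of 13.97 against 37.97. The part of the SC markers in the result was not tested. The 6 RC markers summed to a median of 80.1 CPM in Slc26a4-/- against 5.62 in Slc26a4+/+ cells on run date 2 and to 43.4 against 174.5 on run date 4, and their part in the result was not tested. The summed levels of the 10 IMC markers were higher in Slc26a4-/- cells on both run dates, with medians of 66853 against 45561 CPM on run date 2 and 90702 against 48727 on run date 4. The 5 fibrocyte markers had a mean sum of 89.96 CPM in Slc26a4-/- against 4.30 in Slc26a4+/+ cells on run date 2 and of 38.5 against 71.96 on run date 4. The part of both lists in the result was not tested either. On run date 4 the day numbers of the genotypes followed each other without overlap, so day of collection and genotype cannot be told apart there, whereas on run date 2 they were interleaved. The Slc26a4+/+ cells of run date 3, with no Slc26a4-/- cells beside them, held 10 counts of Mcoln3 in 13 of 24 cells at a mean of 118.4 CPM.

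**Figure D3:**
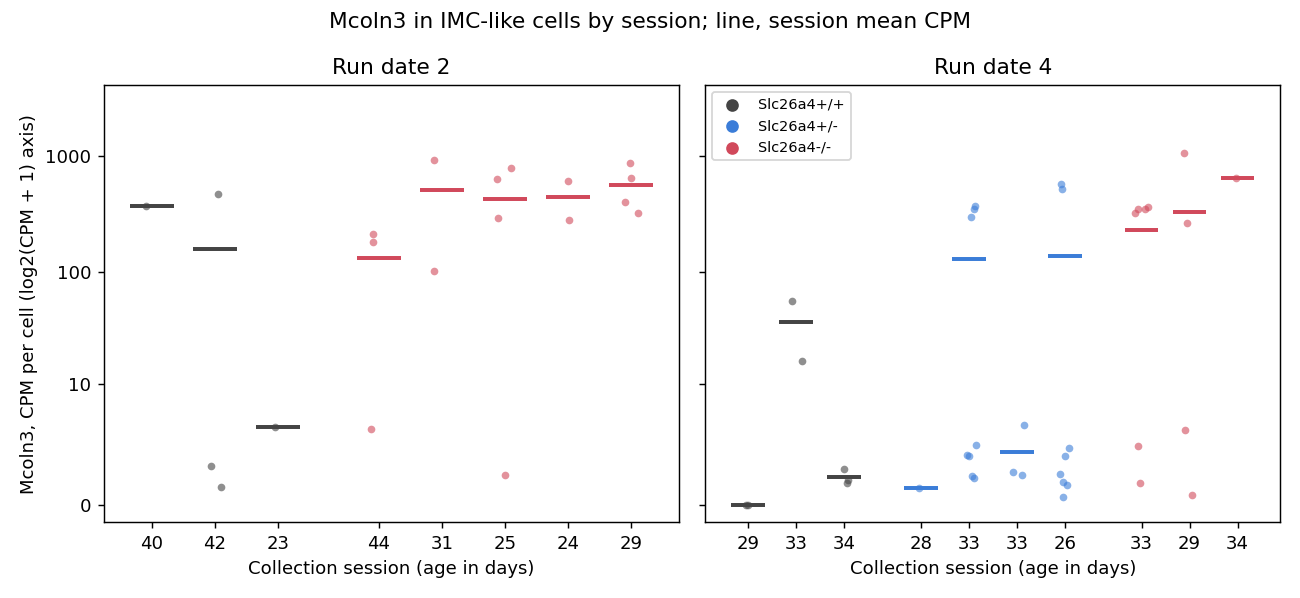
Mcoln3 in IMC-like cells of run dates 2 and 4 by collection session, labelled by age in days; points are cells, lines are session means, the vertical axis is CPM spaced as log2(CPM + 1). On run date 4 the 3 Slc26a4-/- sessions lie above the 3 Slc26a4+/+ sessions, and the 4 Slc26a4+/- sessions divide into 2 at 128.7 and 137.7 CPM and 2 at 0.397 and 1.84 CPM.

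No other member differed by over 2-fold in the same direction on both run dates. Mcoln1 was 348 against 287.9 CPM on run date 2 and 210.6 against 174.3 on run date 4, with a log2 ratio of 0.27 on each. Trpm7 was 216.6 against 494 CPM on run date 2 and 168.7 against 97.6 on run date 4, in opposite directions, and Trpm3 likewise (20.6 against 79.2 and 18.02 against 13.3 CPM). Trpv4 was 23.7 against 0.158 CPM on run date 2, where 1 of 15 Slc26a4-/- cells held 10 counts, and 2.13 against 0.624 on run date 4. Trpm4 was at most 0.169 CPM in either genotype, in a gene table that holds only 49.3% of its transcript counts.

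The second comparison asked the same of the pendrin cells, SC-like and RC-like together, where the exchanger is normally made. Of 6 members tested, none was past the fold in either direction, whereas 14.9% of 9367 genes were higher and 5.59% lower, 20.4% in all. Run date 2 held 15 Slc26a4-/- cells (8 SC-like) but 3 Slc26a4+/+ cells (2 SC-like), and run date 4 held 7 Slc26a4-/- cells, all RC-like, against 9 Slc26a4+/+ cells (3 SC-like), so the makeup of types moved with genotype, and its part in the result was not tested. Mcoln3 was lower in Slc26a4-/- cells on both run dates, at 380 against 1136 CPM (log2 ratio -1.58) and 271.1 against 401 CPM (-0.56). The permutation over sessions gave a difference of -0.055 for Mcoln3 (exact p = 0.984, 315 arrangements).

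Trpv4 was 405.4 against 19.7 CPM in Slc26a4-/- and Slc26a4+/+ pendrin cells on run date 2 and 161.6 against 127.7 CPM on run date 4, with an exact permutation p of 0.152 (7 against 6 sessions). In RC-like cells alone, Trpv4 was 429 CPM in 7 Slc26a4-/- cells against 0 in 1 Slc26a4+/+ cell on run date 2 and 161.6 CPM in 7 against 31.4 in 6 cells on run date 4, a choice made after the data were seen. Of 9029 genes, 19.8% were higher past the fold in RC-like cells alone, and on run date 2 the difference rests on that 1 cell at 0 CPM. The 7 Slc26a4-/- RC-like sessions ran from 1.27 over a median of 189.4 to 1572 CPM, and the 12 Slc26a4+/+ sessions of all run dates from 0 over 7.67 to 325 CPM, so they overlapped. In the 4 Slc26a4+/- RC-like sessions Trpv4 was at most 0.567 CPM. Trpm3, the leading channel of these cells, was 624 against 957 CPM and 756 against 597 CPM, within 2-fold on both run dates. Mcoln1 was 134.1 against 301.3 and 120.6 against 142.05 CPM, and Trpm7 198.3 against 233.3 and 178.8 against 155.7 CPM. Trpm4 was 144.5 against 0 and 130.2 against 164.95 CPM, in a gene table that holds only 49.3% of its transcript counts. The edgeR fit called 0.0346% of 8678 genes and no member (smallest adjusted p 0.996, no member with an unadjusted p under 0.05), and DESeq2 called 1.56% of 6092 genes and no member, with 1, Trpm4, under 0.05 unadjusted (adjusted p 0.166). With no filter edgeR called 0.018% and with sessions of 2 or more cells 0.00876% of genes, again without a member.

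**Figure D4:**
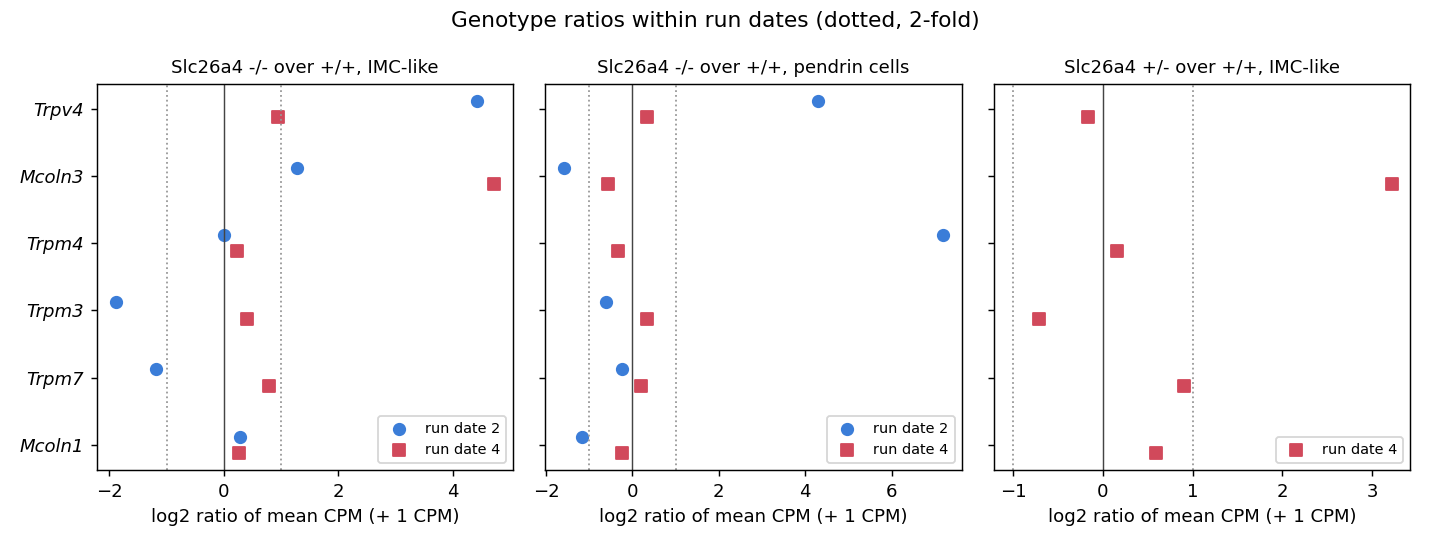
Log2 ratio of mean CPM (with 1 CPM added) between genotypes for the 6 detected genes, within run date 2 (circles) and run date 4 (squares); dotted lines mark 2-fold. Mcoln3 in IMC-like cells is the member with both run dates of Slc26a4-/- against Slc26a4+/+ beyond the same line. Ratios of Trpm4 rest on a group at 0 CPM in 4 of its 5 points, in a gene table that holds only 49.3% of its transcript counts.

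The third comparison set Slc26a4+/- against Slc26a4+/+ IMC-like cells on run date 4, 20 against 7 cells. Both genotypes hold at least 1 wild-type allele. Of 3 members tested, Mcoln3 was past 2-fold, at 106.8 against 10.6 CPM (log2 ratio 3.22), as were 23.7% of 8459 genes in that direction and 39.5% in either. The Slc26a4+/- session means were 0.397, 128.7, 1.84 and 137.7 CPM, which overlapped the Slc26a4+/+ means of 0, 36.03 and 0.731 CPM, and the exact permutation p was 0.914 (4 against 3 sessions, smallest possible 0.0286). The log2 ratio ran from 2.50 without the Slc26a4+/+ session aged 34 days to 6.23 without that aged 33 days, the one with a mean of 36.03 CPM. No member was called by DESeq2 (2.46% of genes), by edgeR (0 of 9076 genes, 369 with an unadjusted p under 0.05) or by edgeR with no filter (0.00625%). In TPM the ratio stayed within 2-fold, at 82.4 against 43.3. Trpm7 (183.8 against 97.6 CPM) and Mcoln1 (262.5 against 174.3 CPM) were within 2-fold. Against the same Slc26a4+/- cells, the Slc26a4-/- cells of run date 4 had a Mcoln3 log2 ratio of 1.504, and their 3 session means, from 231.6 to 646 CPM, were all above the 4 of Slc26a4+/-, while edgeR gave a log2 fold change of 2.85 with an adjusted p of 0.9996. In that comparison DESeq2 called 1.06% of genes, edgeR with no filter 0.00607% and with sessions of 2 or more cells 0.00863%, without Mcoln3. This and the first comparison share the Slc26a4-/- cells, and this and the third share the Slc26a4+/- cells.

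In MC-like cells the genotypes could be set side by side only as values. Trpv4 had 10 counts in all 21 cells, with a mean of 538 CPM over 14 Slc26a4+/+ cells, 271.8 over 2 Slc26a4+/- cells and 841 over 5 Slc26a4-/- cells. Mcoln3 likewise had 10 counts in all 21 cells, with means of 696, 623 and 659 CPM. The 4 Slc26a4-/- sessions of Mcoln3 ran from 268.1 over a median of 657 to 972 CPM, within the Slc26a4+/+ range.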

How the data were processed

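Gene values were the expected counts of the deposited gene table, which the authors made with kallisto on GRCm38 (version and annotation release not given in the sources used here). TPM were those the authors deposited per transcript for each cell, summed per gene through GENCODE M21 (1288 of 98492 transcripts had no match, a median of 0.635% of a cell's counts). Of 298 columns, 17 matched no sample and were not used. CPM were computed per cell from totals of 1848 to 7932729 counts. Cells were clustered with Seurat 5.3.0 (2000 variable genes, 10 principal components, resolution 0.8), and a cluster was named where 80% of its cells scored best for 1 marker list and at least 3 markers were detected; no doublet caller was run. Run date, day number and age came from the names of the deposited profiles.

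Genotypes were compared within run dates by log2 of mean CPM + 1, for genes with a mean of 10 CPM. As alternatives, counts summed per session were tested with edgeR 4.0.16 (quasi-likelihood) and DESeq2 1.42.0, Benjamini-Hochberg adjusted over all genes, and session means by exact permutation within run dates (scipy 1.17.1). Scripts were tested on simulated data. No label ties sessions to mice, so p-values measure only the spread between sessions, which may be technical. Members and gene lists were chosen with earlier results of these data known. Named like genes were the 3 with the highest r; those of Mcoln1 are not reported here.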

Additional observations from a re-analysis of the deposited data

Results flagged for a closer look

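Of 31 groups of 4 to 10 sessions, 7 had a session far from the others. The cut-off flags about 1 in 20 groups of normally distributed values. Session means in CPM were not shown to be so distributed, so the 7 are not read as an excess. Trpv4 reached 86.2 CPM in 1 of 8 Slc26a4-/- IMC-like sessions, of 4 cells, against 3.62 in the next. The other 6 were sessions of 1 cell. Trpm3 reached 2367 CPM in an Slc26a4-/- RC-like session (next 1001) and 37.9 CPM in an Slc26a4-/- MC-like session (next 2.08). Trpm7 reached 1833 CPM in an Slc26a4+/+ MC-like session (next 155.4) and 393 CPM in an Slc26a4-/- one (next 140.9). Mcoln1 reached 771 CPM (next 256.6) and Mcoln3 2201 CPM (next 935) in Slc26a4+/+ MC-like sessions.

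The difference between Slc26a4-/- and Slc26a4+/+ sessions was larger in IMC-like than in pendrin cells by 3.90 on the log2 scale for Mcoln3 (exact permutation p = 0.0765, 1960 arrangements) and by 0.72 for Mcoln1 (exact permutation p = 0.712). These p-values are 2 of 6 computed and are not adjusted, and neither difference passed 0.05.

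The unnamed clusters entered no genotype comparison in the main setting, though the setting with types from marker scores could include their cells. In the first unnamed cluster on run date 2, Mcoln3 had a mean of 381 CPM in 13 Slc26a4-/- cells against 107.4 in 11 Slc26a4+/+ cells. In the other unnamed cluster on run date 4, 4 Slc26a4+/- cells had 277.02 CPM of Trpv4 against 73.8 in 3 Slc26a4+/+ cells, and 809 CPM of Mcoln3 against 183.4. Some other members were lower there. In the first cluster on run date 2, the same Slc26a4-/- cells had 149.1 CPM of Trpm7 against 316.1, 221.1 of Mcoln1 against 474 and 5.34 of Trpm3 against 23.6 in Slc26a4+/+ cells. In the other cluster on run date 4, the Slc26a4+/- cells had 34.1 CPM of Trpm7 against 102.9 and 1.35 of Trpm3 against 4.46. The rest were not lower. In the first cluster Trpv4 was at 1.14 against 0.434 CPM and Trpm4 at 0 in both genotypes. In the other cluster Trpm4 was at 3.40 against 0 CPM and Mcoln1 at 43.9 against 42.01. These differences were not tested.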

How the results depend on the processing

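The 6 members at 10 CPM in Slc26a4+/+ cells stayed 6 when any session was left out. In IMC-like Slc26a4-/- cells, 1 member was past the fold, and the number was 2 in TPM, 2 with a pseudocount of 0.1 CPM, 3 against Slc26a4+/- within run date 4 (chosen after seeing the data), and 0 with sessions as samples in edgeR, in edgeR with no filter, in DESeq2, in edgeR with sessions of 2 or more cells and in edgeR with the day number as replicate block (the last 2 also chosen after seeing the data). Leaving out a session gave 0 to 2 members, and 0 in every edgeR fit. The Mcoln3 log2 ratio on run date 4 rose to 7.73 without the Slc26a4+/+ session aged 33 days. In pendrin cells, no member was past the fold, against 2 by medians over cells, 1 in RC-like cells alone (chosen after seeing the data, with 1 Slc26a4+/+ cell on run date 2) and 0 to 2 without a session. For Slc26a4+/- IMC-like cells, 1 member was past the fold, against 0 in TPM, 2 with types from marker scores, 2 with a pseudocount of 0.1 CPM, 1 to 3 without a session, and 0 in edgeR, in edgeR with no filter, in DESeq2, in edgeR with sessions of 2 or more cells and by exact permutation. In edgeR and DESeq2, Mcoln1 was the 1 member of this comparison with an unadjusted p under 0.05. The cause of these changes was not tested. In the main setting, 17.7% of 8623 genes were past the fold in either direction in Slc26a4-/- IMC-like cells. The share was 20.4% of 9367 genes in pendrin cells and 39.5% of 8459 in Slc26a4+/- IMC-like cells. For the other fold settings, apart from RC-like cells alone, no share over all genes is given. Their counts are therefore not read as results about the members. Few Slc26a4+/+ cells shared a run date with Slc26a4-/- cells, which limits all genotype values. The labels tie no cell of 1 genotype to a cell of another. The fit with the day as a block used the 4 IMC-like sessions of the 2 day numbers that both genotypes share and gave a Mcoln3 log2 fold change of 3.09. For the other comparisons no paired analysis was possible because their genotypes share fewer than 2 day numbers within a type.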
